A study of Mus musculus with 16 samples.

Results

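Extracellular matrix and fibroblast genes were examined in blood and in a tumour fraction of mice that carried Hepa1-6 tumours, a mouse hepatoma cell line. The 33 genes were chosen as a list of collagens, matrix glycoproteins and proteoglycans, lysyl oxidases and fibroblast or contractile cell genes, out of 16535 genes with a named probe on the array. Of the 33, 31 had a named probe, and Col6a3 and Vcan had none. Each gene is represented by the probe of highest mean log2 intensity over both channels and all arrays, which need not be its brightest in 1 group, and all 31 passed the filter on dim probes, which left 12298 genes tested.

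The study used 16 Agilent arrays with 2 colours. The sample channel (Cy5) held RNA of 8 blood samples of tumour-bearing mice on 8 arrays, and RNA of a density gradient fraction of the mashed tumours, enriched in inflammatory cells, on the other 8. The latter is called the infiltrating fraction below. Mice had received Hepa1-6 cells under the skin, and samples were taken 10 days later. Per the labels the tumour-bearing mice were female and of strain C57Bl/6, called athymic in the treatment text only. The reference channel (Cy3) held blood RNA of untreated female C57Bl/6 mice on each of the 16 arrays, always in the same dye orientation. Ages, the number of mice behind the reference, and whether a sample came from 1 mouse or a pool are not given in the sources used here. Samples of both groups carry the numbers 889, 890, 891, 893, 894, 896, 897 and 898.

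Signals are given as net Cy5 or net Cy3, the median pixel intensity of a spot less its local background, in scanner units. The 75th percentile of net Cy5 lay at 23.5 to 45.5 on blood arrays and at 239 to 1125.5 on arrays of the infiltrating fraction, and 10 spike-in controls were 2.63-fold brighter in Cy5 on the latter. Net Cy5 was therefore also divided by each array's spike-in factor, called spike-in scaled below. No spot was saturated. By the scan date in the file headers, the arrays fell into 4 sets of 4 arrays of 1 group each, and each set is called a slide here. The groups also differed in RNA kit, so that slide, kit and group cannot be told apart. Array 889 of the infiltrating fraction was the dimmest of its group, and array 893 had the lowest spike-in signal there, at 4162 against 8571 to 14571 on the other arrays. These are bulk RNA samples, in which fewer cells of a type and less RNA per cell cannot be told apart.

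The fraction held RNA of several cell types by its markers. Adgre1, which encodes the macrophage antigen F4/80, had net Cy5 of 3114.5 to 18087 in the infiltrating fraction against 91.5 to 252 in blood. Afp, the fetal serum protein made by hepatoma cells, read 67254 to 342713 against 35.65 to 79.5. The T cell receptor chain gene Cd3d was well above background on all 8 arrays of either group, in mice the treatment text calls athymic. Of 12 endothelial genes with a named probe, 8 cleared background on 7 or 8 arrays of the infiltrating fraction. Flt1, a receptor of vascular endothelial growth factor that monocytes also carry, was the brightest of them at 624 to 6094 (at most 127 in blood), while Cdh5, the cadherin of endothelial junctions, read 0 to 15 and did not clear background on any array of the fraction. Which cells carried the matrix transcripts was not tested.

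As background, fibroblasts and related mural cells make most of the interstitial matrix of a tissue. Fibrillar collagens form its fibres, which lysyl oxidases crosslink. Collagen IV, laminins and nidogen form the basement membrane under epithelia and around vessels. Proteoglycans and glycoproteins such as decorin, fibronectin and SPARC bind the fibres and the cells. Circulating blood cells are not a known source of most of these proteins, while platelets carry fibronectin and cytoskeletal proteins. TGF-beta and PDGF are the best known signals that drive matrix production in fibroblasts.

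A probe is called above background where the scanner software flagged its signal as well above it, and at background on a set of arrays where it did so on none of them. In blood, 18 of 31 genes, each by the probe used, were at background in Cy5 on every array, against 28.5% of all genes tested. In the infiltrating fraction, 28 of 31 cleared background on 7 or 8 of the 8 arrays, and 17 of these were at background on every blood array (all genes tested, 24.0%). Net Cy5 of every infiltrating array lay above that of every blood array for 20 of 31 genes, and for 75.5% of all genes tested. After spike-in scaling the count was 16 of 31 (60.7% of all genes), and without array 889 of the infiltrating fraction it was 23 of 31 (71.3%). As shares of the 31 genes, complete separation held for 64.5% by net Cy5, 51.6% after spike-in scaling and 74.2% without array 889, and 54.8% were at background in blood and above it in the fraction. The first and second of these shares lay below those of all genes, the third was close to it and the last was higher. A gene at background in blood could pass the filter only by Cy5 in the fraction or by Cy3. The last share therefore follows in part from the filter, and none of these differences was tested.

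**Figure D1:**
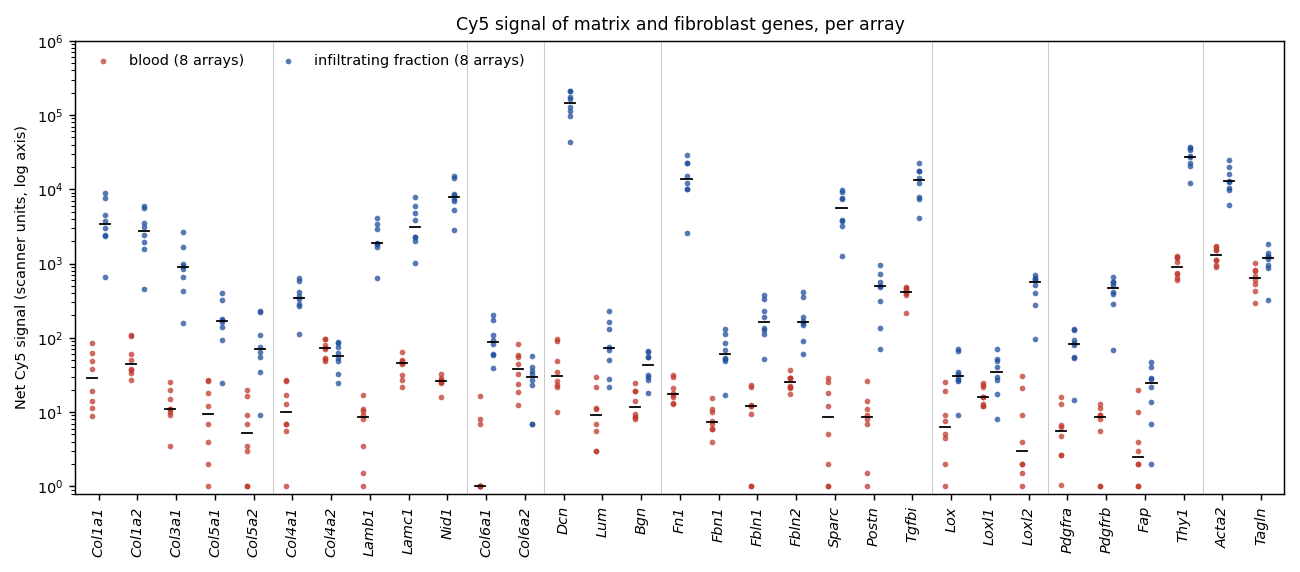
Net Cy5 signal (log axis, scanner units, values under 1 drawn at 1) of the 31 genes on each of 8 blood arrays (red) and 8 arrays of the infiltrating fraction (blue), with black bars at the medians and vertical lines between functional groups. Dcn spans 43856 to 212120 in the infiltrating fraction and 10 to 96 in blood, whereas Col4a2 and Col6a2 overlap between the groups.

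By the probes used, both chains of collagen I and Col3a1 were bright in the infiltrating fraction and low in blood, while the collagen V chains were dim in both. Col1a1, which encodes the alpha 1 chain of collagen I, the main fibre-forming collagen, had net Cy5 of 8.75, 28.8 and 83.85 in blood (lowest, median and highest of 8) and of 654.4, 3359.8 and 8957.85 in the infiltrating fraction. The groups did not overlap, and array 889 was the lowest of the fraction. Its ratio to the untreated reference was 1.41 ± 0.07 log2 in the infiltrating fraction (SE, n = 8; limma adjusted p = 1.16e-07), positive on 8 of 8 arrays, and −0.10 ± 0.08 in blood. Col1a2, the alpha 2 chain of the same trimer, read 27, 44.25 and 108 in blood and 450.5, 2756.5 and 6007 in the fraction, again without overlap. Its ratio was 0.96 ± 0.08 (n = 8; limma adjusted p = 4.19e-06), under the 2-fold threshold, and 1.03 without array 889. Col3a1, a fibre collagen of soft tissue and early scars, was at background on all blood arrays (3.5 to 25.5) and read 160, 895.75 and 2698 in the fraction. Other probes of these genes were far dimmer. Another Col1a1 probe read 8 to 235 in the fraction, with a ratio of 0.09, and a further one read 3 to 18 and was at background there. The other Col3a1 probe read 2 to 12 in the fraction and was at background there. Both chains of collagen I and Col3a1 were highest on array 898 and lowest on array 889 of the fraction.

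Col5a1 and Col5a2 encode collagen V, which sets the diameter of collagen I fibres. By the probes used, neither was above background on a blood array, and a second Col5a1 probe, which did not pass the filter, was so on 1. Col5a1 ranged from 25 to 404 in the fraction and Col5a2 from 9 to 226.5, with array 889 at the low end of both. Their ratios to the reference were 0.09 ± 0.04 and 0.23 ± 0.06 log2 (n = 8), and the reference itself was not above background for Col5a2 on any array of the fraction's slides. Ratios of such dim pairs rest on the correction for background, which adds 50 units to both channels.

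Promoter sequences were available for 20 of the 33 genes in a RefSeq table of build GRCm38.p6. The 250 bases before the transcription start of 3 of them are shown, since by the probes used these genes were bright in the tumour fraction and near background in blood. They are Col1a2 (chr6:4505368-4505617, plus strand), Col3a1 (chr1:45311288-45311537, plus strand) and Nid1 (chr13:13437352-13437601, plus strand). Capitals mark the letters CCAAT and GGGCGG, read on both strands (ATTGG and CCGCCC).
Col1a2: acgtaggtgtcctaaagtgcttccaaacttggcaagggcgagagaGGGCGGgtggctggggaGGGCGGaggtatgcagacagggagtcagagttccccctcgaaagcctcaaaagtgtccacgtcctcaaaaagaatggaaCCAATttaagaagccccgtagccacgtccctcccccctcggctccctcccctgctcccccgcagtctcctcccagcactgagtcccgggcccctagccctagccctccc
Col3a1: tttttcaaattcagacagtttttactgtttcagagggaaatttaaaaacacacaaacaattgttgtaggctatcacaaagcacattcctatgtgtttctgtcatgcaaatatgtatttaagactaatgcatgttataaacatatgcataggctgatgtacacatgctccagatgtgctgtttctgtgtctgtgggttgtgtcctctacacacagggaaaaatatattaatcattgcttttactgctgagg
Nid1: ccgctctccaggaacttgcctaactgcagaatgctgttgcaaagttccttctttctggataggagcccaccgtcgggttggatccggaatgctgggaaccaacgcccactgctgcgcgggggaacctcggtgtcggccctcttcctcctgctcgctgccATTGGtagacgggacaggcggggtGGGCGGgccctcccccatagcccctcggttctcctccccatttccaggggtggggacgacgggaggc
Col1a2 holds CCAAT at 109 bases before the start and GGGCGG at 205 and 188 bases. Nid1 holds ATTGG at 91 bases and GGGCGG at 67 bases, and Col3a1 holds neither motif in this window. Of 32851 windows of this length in the table, 33.8% hold CCAAT on either strand and 32.7% hold GGGCGG, so that a match is common and is given as a description of the sequence.

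Genes of the basement membrane included 2 of the 5 highest ratios. Nid1 encodes nidogen 1, which links laminin to collagen IV. Its net Cy5 was 16, 26.25 and 32.5 in blood (lowest, median and highest) and 2853, 7920.75 and 14915.5 in the infiltrating fraction, so that the lowest tumour sample stood far above the highest blood sample. The reference on the same spots rose little, from 41.5 to 58.5 on blood slides to 71.5 to 89 on those of the fraction. The ratio was 2.80 ± 0.18 log2 (SE, n = 8; limma adjusted p = 5.07e-07), positive on 8 of 8 arrays, and 3.03 and 2.57 on the first and second slide alone. Lamb1, the laminin beta 1 chain, was at background in blood (1 to 17) and read 637, 1867.25 and 4042 in the fraction. Its ratio was 1.29 ± 0.10 (n = 8; limma adjusted p = 1.73e-06). Lamb1 cleared background on no array of the blood slides in either channel. It passed the filter on dim probes only by arrays of the fraction, so this p-value is not separate support for a difference.

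Lamc1, the gamma 1 chain shared by most laminins, read 21.5, 45.25 and 64.5 in blood and 1011, 3099.5 and 7891 in the fraction, without overlap. Its ratio of 0.95 ± 0.08 stayed under 2-fold, and was 1.01 without the arrays numbered 891. In Cy5 alone, scaled between arrays, the fraction exceeded blood by 1.41 ± 0.11 log2 (n = 8 and 8; limma adjusted p = 6.06e-10). Col4a1, a chain of the collagen IV network, was at background in blood and read 112.5, 347.75 and 637 in the fraction, where its second probe was brighter at 134, 541.5 and 917.5 and had a ratio of 0.78.

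The 2 probes of Col4a2, the partner chain of Col4a1, disagreed. The one used, of higher mean intensity over all arrays, read 48 to 96 in blood and 25 to 88.5 in the fraction, and its spike-in scaled Cy5 was lower on every infiltrating array than on every blood array, the only gene of the 31 of which this held (7.14% of all genes tested). Its other probe, the brighter one in the fraction, was at background on all blood arrays and read 58, 258.25 and 489 in the fraction. Both probes of Col4a1 were likewise at background in blood and above it on 8 of 8 arrays of the fraction. No direction for Col4a2 is therefore given.

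For collagen VI, a beaded microfibril around cells, the alpha chains also differed. Col6a1 was at background in blood and read 39, 87.25 and 200.5 in the infiltrating fraction. Col6a2 read 12.5, 38.5 and 83.5 in blood and 7, 30 and 56.5 in the fraction, with the groups overlapping. Its ratio was 0.18 ± 0.06 log2 in blood and −0.95 ± 0.16 in the fraction, and the difference of −1.13 ± 0.17 passed the test (n = 8 and 8; limma adjusted p = 1.67e-05). Against the reference, the Col6a2 ratio crossed the 2-fold threshold when array 897 (−1.08) or array 898 (−1.06) was left out. It was −0.06 and −0.21 on these arrays and −1.07 to −1.32 on the others of the fraction, so that its mean joins unlike values. The Col6a2 ratio was thus least negative on arrays 897 and 898, as were those of Fbln2 and Tagln. Ratios of Nid1, Loxl2 and Pdgfrb, which were positive, were lowest on these 2 arrays, whereas those of Dcn and Sparc were not. In Cy5, Col6a2 was above background on 5 of 8 arrays of the fraction.

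Among the small proteoglycans, decorin had the clearest separation of the groups. Dcn, whose product binds collagen I and TGF-beta, read 10, 30.5 and 96 in blood and 43856, 145731 and 212120 in the infiltrating fraction. The groups were separated on every array. Its ratio to the reference was 2.29 ± 0.08 log2 (SE, n = 8; limma adjusted p = 4.19e-09), positive on 8 of 8 arrays. The single-channel difference was larger, at 6.92 ± 0.18 log2 in Cy5 alone after scaling between arrays (n = 8 and 8; limma adjusted p = 3.36e-17), and the ratio of mean spike-in scaled Cy5 was 1326-fold. The reference channel read 48 to 57 for this probe on blood slides and 2281.5 to 5246 on the slides of the fraction, although the same kind of RNA is labelled as reference on both.

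Lum and Bgn encode lumican and biglycan, relatives of decorin that also bind collagen. Both were at background on all blood arrays and above it on 7 of 8 arrays of the infiltrating fraction, where Lum read 22, 72.5 and 232 and Bgn 18, 43.25 and 65.5. Their ratios to the reference were −0.07 ± 0.07 and 0.06 ± 0.05 log2 (n = 8), within the spread between arrays.

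The rise of the Cy3 reference seen for Dcn recurred for other bright genes. For Fn1, the reference read 34.05 to 42 on blood slides and 1405 to 4520 on those of the fraction. For Sparc it went from 18 to 30 up to 104 to 267.5, whereas for Col1a1 it went from 64.2 to 78.95 up to 91.85 to 151.75. Of 15 genes above background in Cy3 on all 16 arrays, 5 were at least 2-fold higher in median Cy3 on the slides of the fraction (26.3% of 8383 genes, and 34.2% of the 2000 genes with a median Cy5 of 5000 or more). The hepatoma gene Alb, at background in blood Cy5, showed the same shift of Cy3, from at most 19.5 units up to 4657.5 to 12194. Where Cy3 moves with Cy5 in this way, a Cy5/Cy3 ratio is smaller than the difference in Cy5, and the part of this in the ratios was not tested.

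**Figure D2:**
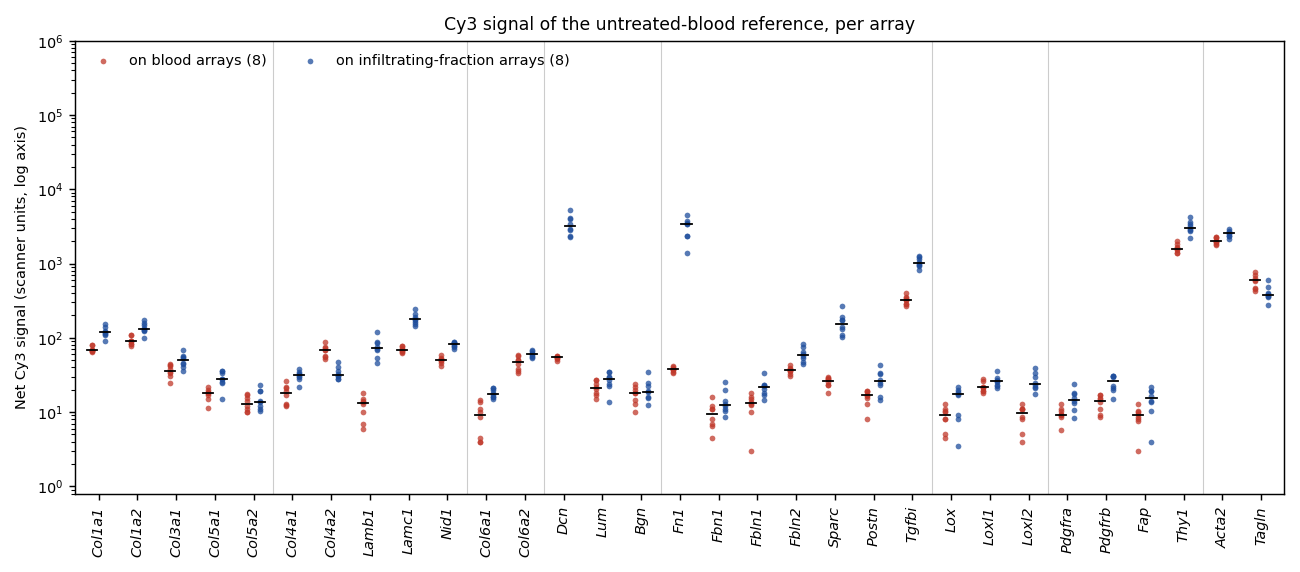
Net Cy3 signal (log axis, scanner units) of the untreated-blood reference for the 31 genes on the 8 blood arrays (red) and on the 8 arrays of the infiltrating fraction (blue), with black bars at the medians. Medians for Dcn are 55.75 and 3181.75, for Fn1 37.7 and 3423, and for Nid1 50.25 and 82.5.

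Fibronectin, an adhesion glycoprotein that fibroblasts assemble into fibrils and hepatocytes secrete into plasma, gave opposite signs by ratio and by Cy5. Fn1 was at background on all blood arrays (12.7 to 31.75) and read 2589, 13728 and 29279.9 in the infiltrating fraction. The fitted Cy5 difference was 3.98 ± 0.18 log2 (n = 8 and 8; limma adjusted p = 1.17e-13). This equals the bound of at least 15.8-fold, since the scaled blood signal of Fn1, though not called above background, was no lower than the lowest signal so called. Its ratio to the reference was −0.82 ± 0.05 after loess, negative on 8 of 8 arrays, and 1.36 under median centring. The 2 other Fn1 probes had ratios of 0.27 and 0.06 and read 303.5 to 2814 and 80.5 to 657.5 in the fraction.

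Sparc encodes a collagen-binding glycoprotein of remodelling tissue. It was at background on all blood arrays (−3.5 to 28.5) and read 1278, 5620 and 9752.5 in the infiltrating fraction. Its ratio was 1.59 ± 0.12 log2 (n = 8; limma adjusted p = 1.31e-06), positive on 8 of 8 arrays, and Cy5 was at least 7.92-fold above blood. Its second probe gave a ratio of 1.001. Postn, which encodes periostin, a matricellular protein of activated fibroblasts, was at background in blood and read 70.5, 496.25 and 948 in the fraction, where Cy5 was at least 1.76-fold higher and the ratio was 0.57 ± 0.09.

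Fbn1, Fbln1 and Fbln2 encode fibrillin and fibulins of elastic fibres and basement membranes. Fbn1 and Fbln1 were at background in blood and read 17, 61 and 129.5 and 52, 161.5 and 378 in the infiltrating fraction, with ratios of 0.30 ± 0.08 and 0.31 ± 0.07 log2 (n = 8). Fbln2 read 17.5, 25.5 and 37 in blood and 60, 161.5 and 417 in the fraction without overlap, although its ratio was −0.44 ± 0.07. After spike-in scaling the groups overlapped for Fbln2, at 27.0 to 61.1 in blood and 32.8 to 223 in the fraction. Tgfbi, a TGF-beta induced adhesion protein that monocytes and macrophages also make, read 218, 419 and 480.5 in blood and 4111.5, 13162.5 and 22475.5 in the fraction. Its ratio was 0.83 ± 0.06 in blood and 0.50 ± 0.06 in the fraction. The difference of −0.33 ± 0.10 turned to 2.47 under median centring and 1.82 under spike-in centring.

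Of the lysyl oxidases, which crosslink collagen and elastin, Loxl2 separated the groups. Loxl2 was at background on all blood arrays (−0.5 to 30.5) and read 95, 558.75 and 691 in the infiltrating fraction, on each array above every blood array. Its Cy5 difference was 1.07 ± 0.11 log2 (n = 8 and 8; limma adjusted p = 5.85e-08), and its ratio was 0.70 ± 0.13. Loxl2 passed the filter on dim probes only by its Cy5 in the fraction, so this p-value is not separate support for a difference. Against the lowest signal called above background in blood, Cy5 was at least 2.03-fold higher. Lox read 9 to 71 and Loxl1 8 to 71 in the fraction, both overlapping blood.

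Of the receptors and surface proteins that mark fibroblasts, 3 of 4 were at background in blood. Pdgfrb, the PDGF receptor of fibroblasts and pericytes, was at background on all blood arrays (−5.5 to 13) and read 69, 463.25 and 666.5 in the infiltrating fraction. Its Cy5 difference was 1.02 ± 0.09 log2 (n = 8 and 8; limma adjusted p = 1.85e-09). Leaving out the arrays numbered 893, 894 or 896 gave 0.992 to 0.999, just under 2-fold. As a bound, Cy5 of Pdgfrb was at least 1.90-fold higher than in blood, which is also under 2-fold. Pdgfrb passed the filter on dim probes only by its Cy5 in the fraction, so its p-value is not separate support for a difference. Pdgfra, the related receptor of fibroblasts, read 14.6, 83.2 and 131.25 in the fraction against 1.06 to 15.8 in blood. Fap, a surface protease of activated fibroblasts, read 2, 24.75 and 47 and was above background on 5 of 8 arrays of the fraction and on none of blood.

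Thy1 encodes a surface glycoprotein of fibroblasts that T cells of the mouse carry as well. It read 602, 904.75 and 1283 in blood and 12176.5, 27316 and 37003.7 in the infiltrating fraction, without overlap. Its ratio was 0.10 ± 0.12 log2 (limma adjusted p = 0.449, n = 8), and its Cy5 difference was 1.01 ± 0.21 (limma adjusted p = 3.08e-04, n = 8 and 8). Without the arrays of 1 number the latter ranged from 0.91 (889) to 1.11 (893) and fell under 2-fold for 889, 890, 891, 897 and 898. The second probe, of median 88.5 in blood and 794.75 in the fraction, had a ratio of −0.69.

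The contractile genes Acta2 and Tagln, markers of smooth muscle and myofibroblasts, were bright in blood too. Acta2, smooth muscle actin, read 896.5, 1322.5 and 1732.5 in blood and 6155.5, 12726 and 25031 in the infiltrating fraction, without overlap, while its ratio was −0.56 ± 0.06 log2 (n = 8). A second Acta2 probe read 27.95 and 933.9 in the median of blood and fraction, with a ratio of 0.51. Tagln, the actin-binding transgelin that platelets also contain, read 295, 647 and 1009.5 in blood and 327.5, 1203.75 and 1820.5 in the fraction, with the groups overlapping. Its ratio to the reference was −1.24 log2 in the fraction (SE 0.15, n = 8; limma adjusted p = 6.09e-05), negative on 8 of 8 arrays, and 0.63 ± 0.06 in blood. The Tagln ratio was 0.55 under median centring and −0.07 under spike-in centring, so that its direction depends on the centring. Its second probe was at background on all blood arrays and had a median of 37.75 in the fraction. Of 8 platelet genes, 7 were called lower by ratio as Tagln was. Net Cy5 of Ppbp, a platelet chemokine, was 10849.5 to 34476.7 in blood and 488 to 1343 in the fraction, whereas that of Tagln was not lower in the fraction. Platelet genes differed in this. Pf4 overlapped between the groups, at 18105.5 to 48987.9 in blood and 5473 to 31453.6 in the fraction. F13a1 read at most 1183.5 in blood and 679.5 to 4518 in the fraction. The part of platelets in the Tagln values was not tested.

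By ratio to the reference, 5 of 31 genes were called higher in the infiltrating fraction (all genes, 9.33%): Nid1, Dcn, Sparc, Col1a1 and Lamb1. Tagln alone was called lower (all genes, 10.1%), where a call needed a limma adjusted p under 0.05 and at least a 2-fold change. The 31 genes had a median ratio of 0.27 log2 against 0.05 for all genes. Loess sets the centre of every array at 0 along the range of intensity, and median centring sets the median of all spots other than controls at 0. The median of the genes tested differed between centrings. Median centring put this median at 1.20 and called 16 of 31 higher and 0 lower (55.7% and 3.31% of all genes). Spike-in centring put it at 0.58 and called 11 higher and 1, Col6a2, lower (38.0% and 8.89%). The deposited ratios called 21 higher and 4 lower (25.8% and 21.0%). Nid1, Dcn, Sparc, Col1a1 and Lamb1 were called higher under each of these. Of these 5 genes, Lamb1 passed the filter on dim probes only by arrays of the fraction. Only for Col1a1 did the mean over a gene's probes end the call among these 5, at 0.75, and Tagln fell short as well, at −0.63. As shares of the 31 genes, 16.1% were called higher by loess, 51.6% under median centring, 35.5% under spike-in centring and 67.7% in the deposited ratios. The deposited ratios gave the widest gap to the share of all genes, and the differences from those shares were not tested.

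**Figure D3:**
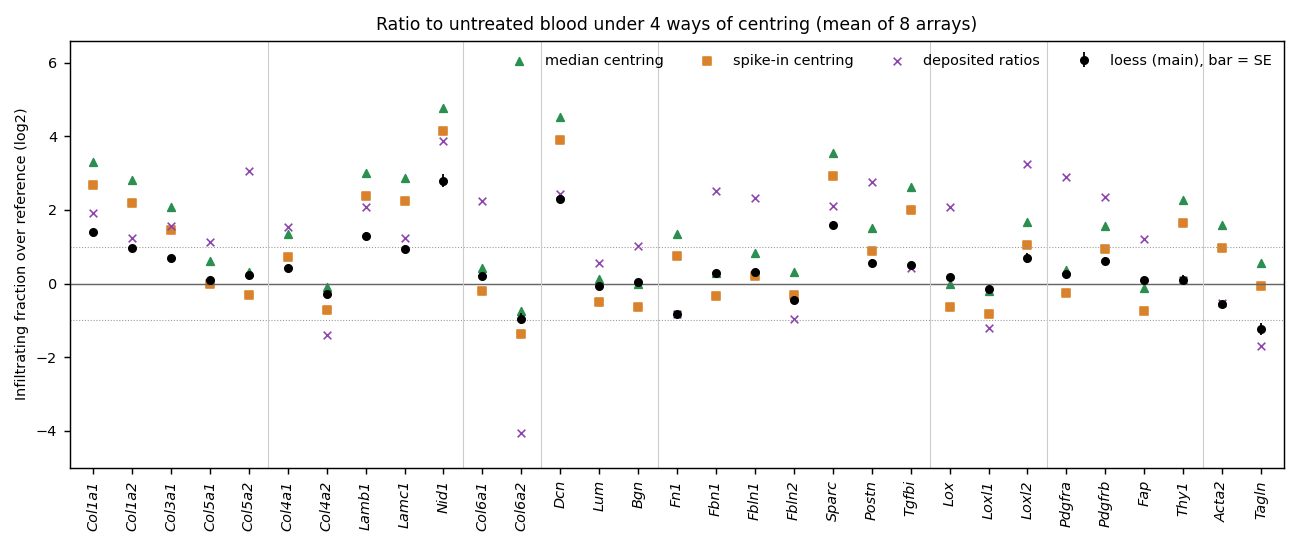
Mean log2 ratio of the infiltrating fraction over the untreated-blood reference for the 31 genes under loess (black, bars are SE, n = 8), median centring (green), spike-in centring (orange) and in the deposited ratios (purple), with dotted lines at 2-fold. Nid1, Dcn, Sparc, Col1a1 and Lamb1 lie above 1 under all 4, whereas Fn1, Acta2 and Tagln are among the genes that change sign between loess and median centring.

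The difference of the ratios between the infiltrating fraction and blood called the same 5 genes higher (all genes, 12.1%) and Tagln and Col6a2 lower (all genes, 11.8%). Median centring called 16 higher and 0 lower (60.0% and 2.72% of all genes), spike-in centring 11 and 1 (45.7% and 9.34%), and the deposited ratios 22 and 5 (34.4% and 22.6%). In Cy5 alone, 10 of 31 were called higher (18.6% of all genes): Dcn, Fn1, Nid1, Sparc, Lamb1, Col1a1, Lamc1, Loxl2, Pdgfrb and Thy1. Of these, Loxl2 and Pdgfrb passed the filter on dim probes only by their Cy5 in the fraction, and the bound for Pdgfrb was 1.90-fold. Lamb1 passed it only by arrays of the fraction, in both channels. Tagln, Col4a2 and Col6a2 were called lower (14.6%). The Col4a2 call holds for the probe used only, since its other probe had a median of 4.5 in blood and 258.25 in the fraction. Scaled to the spike-in controls, 16 were called higher and 1 lower (57.9% and 6.29%), and scaled to each array's 75th percentile 10 and 14 (29.8% and 33.3%). Without any scaling, 26 were called higher and 0 lower (83.0% and 1.56%). The median Cy5 difference of the 31 genes was 0.47 log2 against 0.20 for all genes, and 1.16 against 1.44 with spike-in scaling.

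The ratio of blood to the reference compares tumour-bearing with untreated mice, and it stayed under 2-fold for all 31 genes after loess. Against the reference, 0 of 31 were called higher (0.504% of all genes) and 0 lower (0.244%) by limma, with 10 of 31 at an unadjusted p under 0.05 (56.0% of all genes). Of these, 7 had an adjusted p under 0.05 at less than 2-fold. After loess, Tgfbi at 0.83 ± 0.06 log2 and Tagln at 0.63 ± 0.06 were the largest (n = 8; limma adjusted p = 9.37e-08 and 1.10e-06), each positive on 8 of 8 arrays. The other 5 were Col4a2 (0.45 ± 0.06, by the probe used), Col6a2 (0.18 ± 0.06), Thy1 (−0.32 ± 0.08), Col3a1 (−0.21 ± 0.05) and Acta2 (−0.18 ± 0.05). These values depended on the centring. Under median centring Tgfbi was 0.16 (limma adjusted p = 0.360), Tagln −0.03, Col4a2 0.06 and Col6a2 −0.02, and under spike-in centring Tgfbi was 0.19 and Tagln −0.0019. Thy1 and Acta2 were then the largest, at −0.95 and −0.79 under median and −0.92 and −0.75 under spike-in centring. In the deposited ratios Tgfbi was called higher (1.03; 2.65% of all genes) and Col3a1 (−1.72) and Sparc (−1.32) lower (5.12%), the last 2 of which were at background in Cy5 on all blood arrays.

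The 8 samples of the infiltrating fraction differed in signal. Net Cy5 was lowest on array 889 for 28 of 31 genes (85.5% of all genes tested) and highest on array 898 for 23 (76.9%), so that this order was that of the whole array. Among the 22 genes above background on all 8 arrays, the highest array was 3.04 to 16.9 times the lowest, with a median of 7.11, against 4.87 over 10352 genes measured as often. Col3a1 (16.9-fold), Col5a1 (16.2-fold), Col1a1 (13.7-fold), Postn (13.4-fold) and Col1a2 (13.3-fold) ranged most widely, while Thy1 ranged 3.04-fold, Afp 5.10-fold and Adgre1 5.81-fold. After spike-in scaling, array 889 was still the lowest for 29 of 31 genes, as for 90.7% of all genes. Array 893, whose spike-ins were dim, was then the highest for 18 of 31 (72.1% of all genes), so the upper end of the order depends on the scaling.

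**Figure D4:**
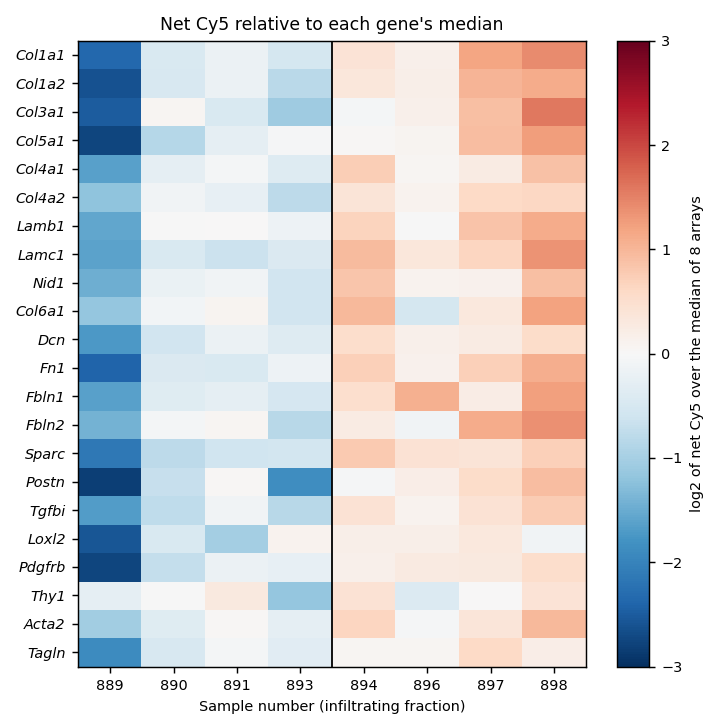
Net Cy5 of 22 genes above background on all 8 arrays of the infiltrating fraction, as log2 over each gene's median (colour, blue low and red high), with samples in columns and a black line between the 2 slides. The column of sample 889 is blue for every gene, and sample 898 holds the highest value of most.

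Genes of further matrix and fibroblast lists followed. Of 18 tested genes that process and crosslink collagen, 4 were called higher against the reference and 0 lower. P4hb, the protein disulfide isomerase that is also the beta subunit of prolyl 4-hydroxylase, had a ratio of 2.59 ± 0.06 log2 (n = 8). Pcolce, an enhancer of procollagen cleavage, had 1.65 ± 0.12, and Serpinh1, the collagen chaperone HSP47, 1.40 ± 0.16. P4ha2, a catalytic subunit of prolyl 4-hydroxylase, and Pcolce2 were at background in blood and read 2289 to 14858 and 276 to 3608 in the infiltrating fraction. Spike-in centring called 8 of the 18 higher, and median centring 11. For this and the following lists, the shares of all genes called higher against the reference were 9.33% by loess, 38.0% under spike-in centring and 55.7% under median centring, and those called lower 10.1%, 8.89% and 3.31%.

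Of 19 further collagens tested, 2 were called higher and 4 lower, and 5 and 3 under median centring. Col18a1, a basement membrane collagen, read 3 to 32 in blood and 1829.5 to 16483.5 in the infiltrating fraction, with a ratio of 2.41 ± 0.11 log2 (n = 8). Col4a6 had −2.18 ± 0.27 and Col27a1 −1.21 ± 0.16 (−0.29 under median centring). Col16a1 was at background in blood and read 59.5 to 662.5 in the fraction. Of 7 further proteoglycans, Agrn, the basement membrane proteoglycan agrin, was called higher (1.24 ± 0.10) and Spock2, a testican, lower (−4.62 ± 0.35). Prelp and Aspn were at background in blood and read 15 to 92 and 14 to 44 in the fraction. Of 6 further basement membrane genes, 0 were called in either direction by ratio and 3 were called higher in Cy5 alone. Among them Lamb3 read 228 to 1822 and Lamb2 279.5 to 1567 in the fraction, with both at background in blood.

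Of 20 tested genes of elastic fibres and matricellular proteins, 4 were called higher and 1 lower, and 7 and 1 under median centring. Ccn2, the connective tissue growth factor, had a ratio of 2.31 ± 0.14 log2, Efemp2, a fibulin of elastic fibres, 2.18 ± 0.13, and Ltbp3, a binder of latent TGF-beta, 1.68 ± 0.09 (n = 8). Ccn2 passed the filter on dim probes only by its Cy5 in the fraction. Of 18 matrix receptors, 3 were called higher and 1 lower (10 and 0 under median centring): Itga1, the alpha 1 integrin that binds collagen, had 1.91 ± 0.23, Sdc2, a syndecan, 1.18 ± 0.09, and Itga6, a laminin-binding integrin chain also found on platelets, −1.66 ± 0.12. Itga6 was 0.35 under median centring. Itga1 and Sdc2 passed the filter on dim probes only by arrays of the fraction, in both channels. In blood 1 of the receptors was called higher.

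Of 14 tested genes of TGF-beta and PDGF signals, 3 were called higher and 0 lower, and 9 under spike-in centring. Pdgfa, a ligand of the PDGF receptors, read 395 to 1080.5 in blood and 12649.5 to 76426 in the infiltrating fraction, with a ratio of 1.59 ± 0.06 log2 (n = 8), and Tgfbr1, a TGF-beta receptor kinase, had 1.18 ± 0.10. Inhba, an activin subunit, and Fgf2, a fibroblast growth factor, were at background in blood and read 418 to 4264.5 and 226.4 to 1898 in the fraction. Of 15 further fibroblast and mural cell genes, 2 were called higher and 1 lower, and 7 and 0 under median centring. S100a4 (1.35 ± 0.15) and Vim (1.28 ± 0.10), which leukocytes also express, were the former, and Tpm2, a muscle tropomyosin, the latter (−1.54 ± 0.16, and −0.11 under median centring). Notch3, a receptor of mural cells, and Twist2, a mesenchymal transcription factor, read 86 to 674 and 64.5 to 404.5 in the fraction and were at background in blood.

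Markers of other cells were read on the same scale. Of 15 tested hepatoma and hepatocyte genes, 7 were called higher against the reference in the infiltrating fraction and 0 lower, and their summed net Cy5 was 385 to 804 in blood and 282898 to 1476490 in the fraction. Of 9 macrophage genes, 5 were called higher and 0 lower, with sums of 276.5 to 669 and 27199 to 131908. The 9 endothelial genes tested had 0 calls against the reference in either direction by loess, 2 higher under median centring, and sums of 222.4 to 575.55 and 1088.75 to 9381.55, and Pecam1 read 65.65 to 456 in the fraction. Of 8 platelet genes 7 were lower, of 10 erythroid genes 9, and of 7 B cell genes 7, while 1 of 9 T cell genes and 1 of 4 keratinocyte genes were lower. None of these 5 lists had a gene called higher by loess, and median centring called 4 T cell genes and 1 platelet gene higher. Adipocyte and skeletal muscle lists (4 genes tested each) had 0 calls by loess, and median centring called 1 adipocyte gene higher. Adipoq and Plin1 read 3.5 to 43.5 and 2 to 19.5 in the fraction. Fabp4, a fatty acid binding protein that macrophages also make, read 1029 to 6608 there and at most 449.5 in blood, and the adipocyte list summed to 1112 to 7252 in the fraction. The summed net Cy5 of the 31 matrix and fibroblast genes was 2374 to 5085 in blood and 87379 to 385363 in the fraction, and the part of tumour cells, macrophages and fibroblasts in it was not tested.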

How the data were processed

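The deposited scanner files hold, per the file headers, median pixel intensities of spots and local background in both channels, and a log10 ratio (Cy5 over Cy3) that Agilent Feature Extraction (10.5.1.1 per the file headers, 9.1.3.1 per the submitters' processing notes) had background-subtracted and dye-normalised. The series' values differed from it by 0.

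Intensities were corrected with normexp (offset 50) and normalised by loess within arrays, and by Aquantile for single channels, in limma 3.58.1 (R 4.3.3, data.table, version 1.17.8). Control spots had weight 0 in loess, and outlier flags were left out. Of 41174 probes, 23374 had 1 gene symbol (GRCm38.p6), 0 several and 17800 none. Tested probes (26494) cleared background in Cy5 on 4 or more of a group's 8 arrays, or in Cy3 on 8 or more of 16. lmFit and eBayes tested each group's ratios against 0, and the groups against each other; Benjamini-Hochberg adjustment ran over all tested probes, and the fits were tested on simulated data. The reference counts as 1 control sample, so its own spread is left out, and p-values measure the spread between these samples. Spike-in centring and scaling used the median of 10 spike-in controls. Bounds ("at least N-fold") divide the bright group's mean by the dim group's mean, each array's value raised to its lowest signal called above background, in scaled single-channel values, open to dye bias.

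Sample numbers were not taken as pairs. Same-numbered samples correlated at −0.17 to 0.20, over 0.1 in 4 of 8 pairs. The genes, the 18 other lists and the rules for naming genes (up to 3 called genes of largest change and 2 of brightest Cy5 per list, 2 per marker list) were chosen with earlier results of these data known. The limits of precision come from the number of arrays.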

Additional observations from a re-analysis of the deposited data

Results flagged for a closer look

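Of 58 groups of 8 values checked, 8 held a value far from the others by Dixon's test, and each was array 889 of the infiltrating fraction at the low end. Chance alone gives about 1 in 20 for a single group. These groups share the same arrays, so their count cannot be set against that rate, and no share over all genes is given. In log2 spike-in scaled Cy5 these were Col1a1 at 8.48 (nearest other array 10.501), Col1a2 at 7.95 (10.2), Col5a1 at 3.77 (6.09), Postn at 5.27 (7.76), Pdgfrb at 5.24 (7.65), Tagln at 7.49 (9.15) and Tgfbi at 11.1 (12.5). The Col1a1 ratio was 0.90 on that array and 1.30 on the nearest. Array 889 was also the lowest for 90.7% of all genes after spike-in scaling, and its part in single genes was not tested.

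By the difference of the ratios between infiltrating fraction and blood, each against the same kind of reference, 7 genes were called. A call needed a limma adjusted p under 0.05 and at least a 2-fold change. A further 19 genes had a limma adjusted p under 0.05 at less than 2-fold. The difference was 2.91 log2 for Nid1, 2.15 for Dcn, 1.72 for Sparc, 1.51 for Col1a1 and 1.30 for Lamb1, and −1.13 for Col6a2 and −1.86 for Tagln. Lamb1 passed the filter on dim probes only by arrays of the fraction.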

How the results depend on the processing

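Counts of called genes moved with the centring, in the deposited ratios and with background subtraction, and the cause was not tested. For blood against the reference, 0 members were called in either direction except in the deposited ratios (1 higher, 2 lower) and with background subtraction (1 lower), while calls among all genes were 92 in the main setting, 894 by median centring, 785 by spike-in centring, 956 in the deposited ratios, 53 without background correction, 403 with subtraction, and 61 and 152 on the first and second slide. For the infiltrating fraction against the reference, 5 members were called higher, and 16 by median centring, 11 by spike-in centring, 21 in the deposited ratios and 14 with subtraction. The 1 lower became 0 by median centring and for the mean of a gene's probes, 4 in the deposited ratios, 2 with subtraction, 2 on the first slide and 1 to 2 when 1 sample number was left out. All genes called were 2392, 7259 (median), 5767 (spike-in), 5759 (deposited) and 4368 (subtraction). For the ratios of fraction against blood, the 5 higher and 2 lower became 16 and 0 (median), 11 and 1 (spike-in), 22 and 5 (deposited) and 12 and 4 (subtraction), with 1 lower without background correction and for the mean of probes. All genes called were 2935, 7711, 6766, 7006 and 5309 in that order. For Cy5 alone, the 10 higher and 3 lower became 10 and 14 (75th percentile), 26 and 0 (no scaling), 16 and 1 (spike-in scaled, chosen after seeing the data) and 19 higher (subtraction). All genes called were 4088, 7757 (75th percentile), 10399 (no scaling), 7891 (spike-in scaled) and 7269 (subtraction).

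Among values called in the main or the alternative setting, these signs reversed. Under median centring, ratios to the reference of Fn1, Acta2 and Tagln were 1.36, 1.59 and 0.55, and differences of fraction and blood for Fn1, Acta2, Tagln and Tgfbi were 1.55, 2.38, 0.59 and 2.47. Under spike-in centring, the differences for Acta2 and Tgfbi were 1.73 and 1.82. In Cy5 scaled to the 75th percentile, Col5a1 was −1.07, Col5a2 −1.501, Col6a1 −1.22, Fbn1 −1.57, Lox −1.87, Pdgfra −1.44, Pdgfrb −0.070 and Fap −1.91. Without scaling, Cy5 differences were 0.38 for Col4a2, 0.45 for Col6a2, 1.30 for Lum, 1.03 for Bgn, 3.29 for Acta2, 0.79 for Tagln and 1.66 for Fbln2. Acta2 was 1.90 in spike-in scaled Cy5, and Thy1 was −0.0070 for the mean of its probes. A further 78 values called in neither setting also changed sign. Among them were, in blood, Tagln (−0.03) and Col6a2 (−0.02) under median centring, and, in the fraction, the ratios of Fn1 (0.74) and Acta2 (0.97) under spike-in centring. With the sample number as a replicate block, the same numbers were called for ratios (5 higher and 2 lower, and 2935 among all genes) and for Cy5 alone (10 and 3). Slide as a random block moved no count, but each slide held 1 group only, so this cannot separate slide from group. Dim genes are limited by background: 8 of 31 had no reference signal above background on the slides of the fraction.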
